A study of Mus musculus with 2 samples.

Results

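Ribosome biogenesis genes encode RNA polymerase I (Pol I), its initiation factors and the nucleolar proteins that modify, cut and fold ribosomal RNA (rRNA) and join it to ribosomal proteins. The 46 members were named by symbol, none of them by a measured value, and 45 of them were found among the 26127 genes of the expression table. Noc2l is not analysed here. The study sequenced RNA of extraembryonic endoderm stem (XEN) cells, a culture model of the primitive endoderm of the mouse blastocyst. Both groups were the female PS10 line of ICR strain, transfected with a lipid reagent. The control group received a control locked nucleic acid (LNA) and the other group an LNA against Gata6-AS, a noncoding RNA antisense to the endoderm factor gene Gata6. Each group is 1 library of 1 cell line. The labels used here give neither the dose nor the time after transfection. The differences therefore compare these 2 libraries rather than the treatments, have no replicate check and carry no p-value of their own.

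In the nucleolus, Pol I transcribes the rRNA genes into a long precursor, and small nucleolar RNA-protein particles (snoRNPs) guide its methylation and pseudouridylation. The small subunit processome and a separate set of large subunit factors then cut the precursor and assemble the 40S and 60S subunits. The output of this pathway is closely tied to cell growth, and many of its genes are known targets of MYC factors, which bind the E-box CACGTG.

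Both Gata6-AS and Gata6 were lower in the Gata6-AS LNA library. The sample titles call both reagents siRNA, while the treatment protocol names LNA, the term used here. Gata6-AS, which the table lists as 1010001N08Rik, had a value of 10.1 RPKM in the control and 5.83 in the Gata6-AS LNA library, where RPKM are reads scaled by gene length in kilobases and by library size in 1000000 reads. Gata6 stood at 81.9 and 55.7 RPKM. The genes share 58 bp on opposite strands, and no source used here says whether reads were counted by strand. All 7 markers of XEN cells were measured, at 31.0 to 357 RPKM in the control, and their sum in the Gata6-AS LNA library was 69.2% of control. At least 20% lower were 5 of them, among them Gata4 (357 and 246 RPKM) and Sox7 (145 and 59.4 RPKM), while Foxa2 stood at 102% of control and Dab2 at 140%. Of the 6 epiblast markers only Nanog reached a mean of 1 RPKM, Sox2, Esrrb and Fgf4 were at or near 0, and the list summed to 4.68 and 5.13 RPKM. None of the 6 trophoblast or 7 fibroblast feeder markers reached that mean. The trophoblast markers summed to 1.10 RPKM with the control LNA and 1.78 RPKM with the Gata6-AS LNA, and the fibroblast markers to 0.00541 and 0.0150 RPKM. The spacing of the RPKM values corresponds to 1.04e+08 reads in the control and 1.23e+08 in the Gata6-AS LNA library. RPKM are relative to the library, so rRNA itself and RNA per cell were not measured, and fewer cells expressing a gene and less of its RNA per cell cannot be told apart.

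The promoters of 6 members are shown because known regulators of this pathway bind short motifs there. They are the 100 bases before the RefSeq gene start in GRCm38.p6, read 5′ to 3′ along the gene. Nop2 and Rrn3 are shown for the E-box, Rrp9 and Nhp2 as members with much higher levels in the Gata6-AS LNA library, and Nop14 and Nop58 as the members with the most negative differences. Capitals mark CACGTG and CCGGAA, the core bound by ETS factors, on either strand (TTCCGG on the other). CACGTG reads the same on both strands and cannot overlap the other motif. CCGGAA and TTCCGG can overlap each other, as they do in Gar1, but do not in the 6 promoters shown.
Nop2, chr6:125131783-125131882, plus strand: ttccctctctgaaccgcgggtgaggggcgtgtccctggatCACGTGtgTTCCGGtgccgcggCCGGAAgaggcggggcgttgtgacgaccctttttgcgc
Rrn3, chr16:13780599-13780698, plus strand: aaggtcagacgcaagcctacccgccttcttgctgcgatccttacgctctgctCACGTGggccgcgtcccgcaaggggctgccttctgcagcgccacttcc
Rrp9, chr9:106477209-106477308, plus strand: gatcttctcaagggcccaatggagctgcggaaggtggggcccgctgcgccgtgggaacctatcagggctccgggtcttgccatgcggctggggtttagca
Nhp2, chr11:51619673-51619772, plus strand: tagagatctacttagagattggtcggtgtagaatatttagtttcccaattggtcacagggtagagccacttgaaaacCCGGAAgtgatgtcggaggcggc
Nop14, chr5:34660149-34660248, minus strand: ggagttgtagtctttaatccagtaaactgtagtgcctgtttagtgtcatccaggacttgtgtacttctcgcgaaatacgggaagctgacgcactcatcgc
Nop58, chr1:59684906-59685005, plus strand: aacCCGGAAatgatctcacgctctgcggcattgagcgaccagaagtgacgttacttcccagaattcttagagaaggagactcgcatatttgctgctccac

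RefSeq promoter entries, which run from 250 bases before to 50 after the start, matched 39 members. Bop1, Rrs1, Npm1, Fbl, Rrp12 and Tcof1 had no entry, so the motif counts leave out the member with the most positive difference, Bop1. CACGTG was present in 7 of them (17.9%), against 12.5% of 7561 tested genes and 8.09% of all 27025 genes with an entry. Those 7 members were Ltv1, Mybbp1a, Nop2, Pes1, Rrn3, Utp20 and Wdr43, and 3 of their 8 E-boxes lay before the start. Their median log2 difference was 0.26, against 0.18 for the 32 members without the motif. CCGGAA, in either orientation, was in 16 of the 39 members (41.0%) and in 33.8% of tested genes. Members with and without it had medians of 0.18 and 0.19. The E-box was thus in members on both sides of 0, such as Mybbp1a and Ltv1, and presence of CCGGAA did not divide these 39 members by their difference.

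Most ribosome biogenesis genes were higher in the Gata6-AS LNA library, and most of the differences were small. On the scale of log2(RPKM + 1), Gata6-AS LNA minus control, 35 of 45 members lay above 0 and 10 below. Among the 10850 genes tested, those with a mean of at least 1 RPKM, 58% lay above 0. The members' median log2 difference was 0.18, and that of all genes 0.05. The middle member stood at 115% of its control level, while 12 members lay between 90% and 110%. All 45 members passed the filter on low values. At least 25% higher (on the RPKM + 1 scale) were 15 members (33.3%), against 14.3% of all genes tested, and 2 members (4.44%), Nop14 and Nop58, were at least 20% lower, which is the same fold, against 8.08%. At least 1.5-fold higher were 7 members (15.6%), against 3.43% of all genes, and none was as much lower, against 1.94%. Bop1 alone passed the 2-fold rule at a pseudocount of 1 RPKM, as did 0.332% of all genes as higher and 0.452% as lower. At a pseudocount of 0.1 RPKM Rrp9 passed it too (1.02). These shares describe a list chosen with earlier results of these libraries known.

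**Figure D1:**
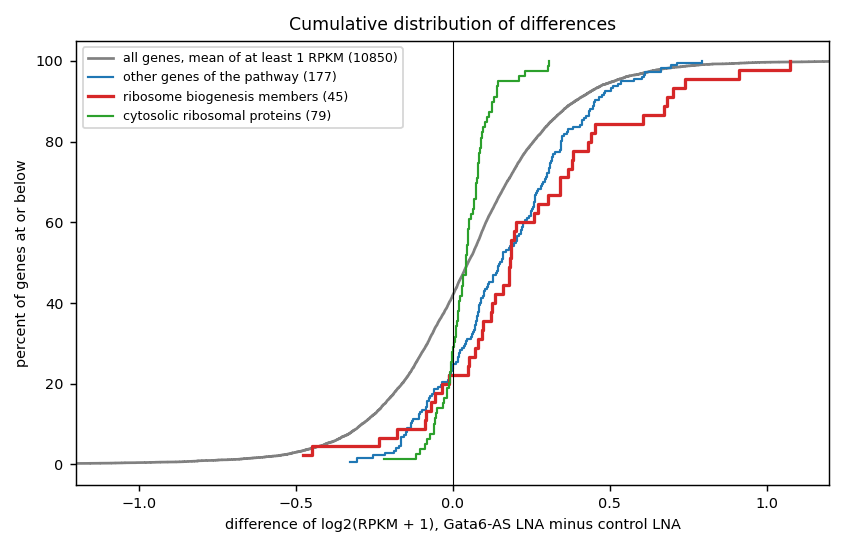
Cumulative share of genes (y axis, percent) at or below each difference of log2(RPKM + 1), Gata6-AS LNA minus control LNA (x axis), for the 45 members, 177 other genes of the pathway, 79 cytosolic ribosomal protein genes and all 10850 genes tested. Rpl7l1 is counted both among the other genes of the pathway and among the ribosomal protein genes. The members' curve lies to the right of the curve of all genes over most of its range, with medians of 0.18 and 0.05, and the ribosomal protein curve is the steepest. Genes beyond -1.2 and 1.2 are outside the plotted range.

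The members ranged widely in level. Npm1, the nucleolar chaperone nucleophosmin, had the highest RPKM, at 503 in the control and 499 in the Gata6-AS LNA library, and made up 32.2% and 28.6% of the members' summed RPKM. Fbl (98.8 RPKM in the control), Ncl (87.0), Gnl3 (73.5) and Nop58 (64.9) followed it. The lowest levels were those of the Pol I subunits Polr1e (1.74 RPKM) and Polr1b (3.26). By mean RPKM, 34 members lay above the median of all genes tested, and 9 were within the highest 10% of them. Across the 45 members, level and difference were weakly related (Spearman's rho -0.12 between control RPKM and log2 difference, both from the same libraries). Intervals quoted with a percent of control are exact (Clopper-Pearson) 95% intervals from the least read numbers that yield both values of a gene. Such an interval covers counting error only, and cultures can vary beyond it. They lay above 100% for 33 members, below it for 8 and across it for 4.

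**Figure D2:**
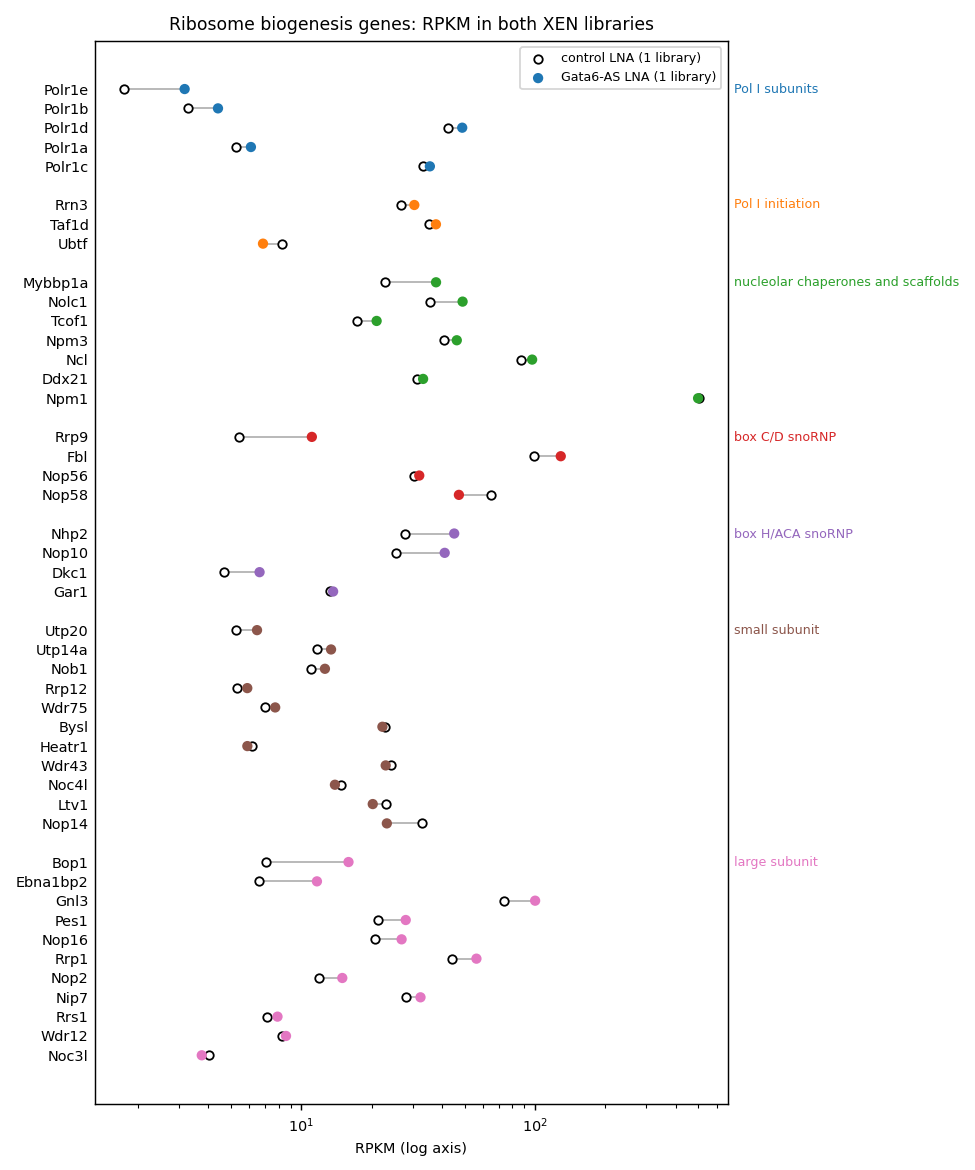
RPKM (x axis, log scale) of each of the 45 members in the control LNA library (open circles) and the Gata6-AS LNA library (filled circles, coloured by role), 1 library each, with members grouped by role and ordered by difference. Levels run from 1.74 RPKM for Polr1e to 503 RPKM for Npm1 in the control, and the widest gaps are those of Bop1, Rrp9, Polr1e and Ebna1bp2.

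All 5 Pol I subunits among the members were higher in the Gata6-AS LNA library, by unequal amounts, while 58% of all genes tested lay above 0. Of the Pol I subunits outside the members, Twistnb (92.1% of control) and Znrd1 (94.1%) were lower. Cd3eap (127%) and the shared subunits Polr2e, Polr2f, Polr2h, Polr2k and Polr2l were higher. Polr1a, the largest catalytic subunit, was at 5.26 RPKM with the control LNA and 6.09 RPKM with the Gata6-AS LNA, a log2 difference of 0.18. Its catalytic partner Polr1b stood at 3.26 and 4.40 RPKM (0.34). Polr1e, a peripheral subunit that belongs to the same dimer as Cd3eap, stood at 1.74 and 3.17 RPKM, 182% of control (167% to 200%) and a log2 difference of 0.61. Of the 5, Polr1e alone was past the 1.5-fold rule. The pseudocount of 1 RPKM understates its change most among the members, since its level is the lowest. Polr1c and Polr1d, which Pol I shares with Pol III, were more abundant, and neither was 25% higher. Polr1c stood at 33.3 and 35.5 RPKM (0.09), and Polr1d at 42.5 and 48.8 RPKM (0.20).

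The factors that bring Pol I to the rRNA promoter did not follow the subunits uniformly. Ubtf, the HMG-box protein UBF that keeps rRNA genes open, was lower, at 8.24 RPKM with the control LNA and 6.86 RPKM with the Gata6-AS LNA, 83.2% of control (80.2% to 86.4%) and a log2 difference of -0.23. Rrn3, which bridges the polymerase and the promoter-bound selectivity factor, stood at 26.8 and 30.5 RPKM (0.18). Taf1d, a subunit of that selectivity factor, stood at 35.2 and 37.7 RPKM (0.10). None of these 3 was 25% higher or 20% lower.

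Among nucleolar chaperones and scaffolds, 2 of 7 were at least 25% higher and none 20% lower, beside 14.3% and 8.08% of all genes tested. Mybbp1a, a nucleolar protein that binds MYB and takes part in rRNA transcription and processing, was at 22.8 RPKM with the control LNA and 37.7 RPKM with the Gata6-AS LNA, 165% of control (162% to 169%) and a log2 difference of 0.70. Nolc1 (Nopp140), a phosphoprotein that binds snoRNPs, stood at 35.6 and 49.0 RPKM (0.45). Its relative Tcof1 (treacle), which recruits Pol I and UBF, stood at 17.2 and 21.0 RPKM (0.27). The most abundant members of this group differed little. Npm1 was at 99.3% of control (97.1% to 102%), the RNA-binding protein nucleolin, Ncl, at 112% and the nucleophosmin relative Npm3 at 114%. The RNA helicase Ddx21 stood at 31.3 and 33.2 RPKM (0.08).

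The 4 members in the box C/D snoRNP, which methylates rRNA, went in different directions. Fibrillarin, Fbl, the methyltransferase, was at 98.8 RPKM with the control LNA and 129 RPKM with the Gata6-AS LNA, a log2 difference of 0.38. Nop58, a core scaffold protein, stood at 64.9 and 47.3 RPKM, 72.8% of control (71.3% to 74.4%) and a log2 difference of -0.45. Nop56, its partner on the other side of the particle, was near its control level, at 30.4 and 32.0 RPKM (0.07). So was Nhp2l1, a further protein of the particle that is not a member and is counted below among snoRNP assembly genes, at 44.4 and 44.0 RPKM (-0.01). Rrp9, the protein specific to the U3 snoRNP, stood at 5.43 and 11.1 RPKM, 204% of control (181% to 230%) and a log2 difference of 0.91. The ratio of Fbl to Nop58 in RPKM was 1.52 in the control and 2.73 in the Gata6-AS LNA library, and that of Rrp9 to Nop58 was 0.0837 and 0.235. The promoter entries of Nop58 and Rrp9 hold no E-box.

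In the box H/ACA snoRNP, which pseudouridylates rRNA and also belongs to telomerase, 3 of 4 proteins were at least 25% higher. The share of all genes tested was 14.3%. The median log2 difference of this particle, 0.55, was the highest of the 7 role groups. Nhp2 was at 27.7 RPKM with the control LNA and 45.1 RPKM with the Gata6-AS LNA, 163% of control (156% to 170%) and a log2 difference of 0.68. Nop10, a small core protein that binds the catalytic subunit, stood at 25.4 and 41.1 RPKM, 162% of control (155% to 169%). Dkc1, dyskerin, the pseudouridine synthase itself, stood at 4.66 and 6.63 RPKM (0.43). Gar1, which joins the particle last, was the exception, at 13.2 and 13.7 RPKM (0.05), with an interval of 98.1% to 109% of control. The ratio of Nhp2 to Nop10 was 1.09 in the control and 1.10 in the Gata6-AS LNA library, whereas that of Nhp2 to Gar1 was 2.10 and 3.30.

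Small subunit factors centred near 0. Of the 11 members that act in the small subunit processome or in 40S maturation, 5 lay above 0 and 6 below, with a median log2 difference of -0.03. Nop14 had the most negative difference of all members, at 32.7 RPKM with the control LNA and 23.2 RPKM with the Gata6-AS LNA, 71.0% of control (68.9% to 73.2%) and a log2 difference of -0.48. Noc4l, its binding partner, stood at 14.8 and 13.9 RPKM (-0.09). Ltv1, an export factor of the 40S subunit, stood at 23.0 and 20.2 RPKM (-0.18). The processome proteins Wdr43 (-0.07) and Heatr1 (-0.06) and the late factor Bysl (-0.03) lay just below 0. Utp20 had the most positive difference of the group, at 5.24 and 6.47 RPKM (0.26). Utp14a (0.19), the endonuclease Nob1 (0.19), which makes the final cut of 18S rRNA, Rrp12 (0.13) and Wdr75 (0.12) lay between them. None of these 11 was 25% higher, and Nop14 alone was at least 20% lower, beside 14.3% and 8.08% of all genes tested. After correction for GC content and transcript length, 6 of the 11 lay above 0 with a median of 0.08, and Utp20 (0.40) was at least 25% higher.

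Large subunit factors were mostly higher. Of 11 measured members of this group, 10 lay above 0, 6 were at least 25% higher and none 20% lower. Over all genes tested these shares were 58%, 14.3% and 8.08%. The median log2 difference of the group was 0.34. After correction for GC content and length the median was 0.25 and 4 were at least 25% higher, without Rrp1 and Nop16. Bop1 had the most positive difference of all members, at 7.04 RPKM with the control LNA and 15.9 RPKM with the Gata6-AS LNA, 226% of control (206% to 249%) and a log2 difference of 1.07. With Pes1 and Wdr12, Bop1 forms the PeBoW complex, which is needed for processing of the 28S and 5.8S rRNA precursor. Pes1 stood at 21.2 and 28.0 RPKM (0.38) and Wdr12 at 8.26 and 8.60 RPKM (0.05). The members of this 3-protein complex thus had separate counting intervals, and the ratio of Bop1 to Wdr12 was 0.852 in the control and 1.85 in the Gata6-AS LNA library.

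The other large subunit members followed in smaller steps. Ebna1bp2, a pre-60S factor, stood at 6.59 and 11.7 RPKM, 177% of control (169% to 186%) and a log2 difference of 0.74. Gnl3 (nucleostemin), a GTPase abundant in stem cells, stood at 73.5 and 100.2 RPKM (0.44). Nop16 stood at 20.6 and 26.9 RPKM (0.37), and Rrp1 at 44.2 and 56.2 RPKM (0.34). The rRNA cytosine methyltransferase Nop2, whose promoter holds both motifs, stood at 11.9 and 15.0 RPKM (0.30). Nip7 (0.20) and Rrs1, which helps place the 5S particle (0.13), were closer to 0. Noc3l, at 4.05 and 3.75 RPKM (-0.09), was the only large subunit member below 0.

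**Figure D3:**
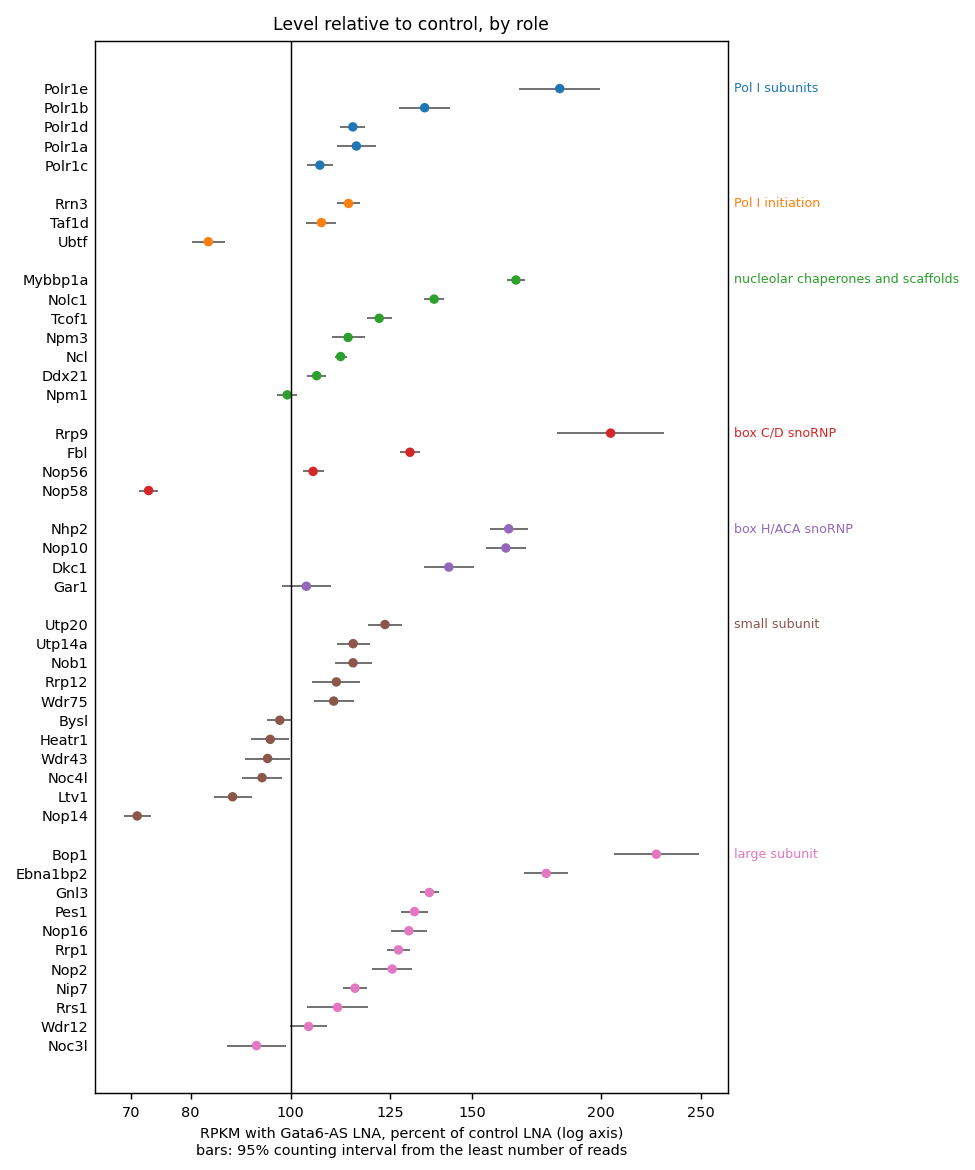
RPKM with Gata6-AS LNA as a percent of control LNA (x axis, log scale) for the 45 members by role, 1 library each. Bars are exact 95% counting intervals from the least number of reads. Box H/ACA and large subunit members lie mostly to the right of 100%, small subunit members on both sides of it, and Nop14, Nop58 and Ubtf farthest to the left.

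The rest of the pathway was also higher in the median. A list of 182 further genes, in 6 groups, held 177 with a mean of at least 1 RPKM. Their median log2 difference was 0.15, with 134 above 0 and 43 below, 41 at least 25% higher (23.2%) and 1, Sbds, at least 20% lower (0.565%). Of all genes tested, 58% lay above 0, 14.3% were as much higher and 8.08% as much lower. The other 50 small subunit genes had a median of 0.20, with 39 above 0, 13 at least 25% higher and none 20% lower, beside the median of -0.03 of the 11 small subunit members. Nol6, a core processome protein, led them at 7.66 RPKM in the Gata6-AS LNA library, 192% of control (182% to 202%, log2 difference 0.79), followed by Rcl1 at 13.4 and 21.8 RPKM (0.66), and the kinase gene Riok3 was lowest (-0.30). The 55 other pre-60S genes had a median of 0.16, from Ftsj3 (0.66) and the rRNA-processing factor Las1l (0.61) down to Sbds (-0.33), the factor that helps release eIF6.

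Genes for assembly of snoRNPs had a median log2 difference of 0.18 over 12 genes. Ruvbl1, at 13.7 and 23.2 RPKM (0.72), and Ruvbl2, at 28.1 and 43.1 RPKM (0.60), the paired ATPases of the assembly machinery, were past the 1.5-fold rule, and Znhit6 was lowest (-0.15). Exosome and RNase MRP genes had a median of 0.09 over 24 genes, from C1d (-0.17) to Exosc5 (0.61). Other Pol I and shared polymerase genes had a median of 0.14 over 14, from Taf1b (-0.17) to Polr2f (0.70), a subunit common to all 3 nuclear polymerases. Genes for Pol III subunits and factors had a median of 0.08 over 22, with none past the 1.5-fold rule, from Bdp1 (-0.17) to Polr3g (0.47). Cytosolic ribosomal protein genes, whose products these factors assemble, were picked by a pattern in their names. They had a median of 0.04 over 79 measured genes, and none was 25% higher or 20% lower. The pattern also took in Rpl7l1, which is counted above among the pre-60S genes and had the highest difference of the 79 (0.31). Mitochondrial ribosomal protein genes had a median of 0.15 over 76 genes, 16 of them at least 25% higher (21.1%), against 14.3% of all genes tested. Above 0 lay 80.3% of the mitochondrial set and 70.9% of the cytosolic set, beside 77.8% of the members and 58% of all genes tested. No test of a difference between these lists and the members was made.

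The members lie on 19 chromosomes, and several overlap or adjoin other expressed genes. In the coordinates of the mm9 table, 15 of 45 members overlap a gene on the opposite strand that has a mean of at least 1 RPKM. Of all genes tested, 22.6% overlap such a gene. An expressed divergent gene starts within 1000 bp upstream of 9 members, and the share of all genes with one is not given here. Of the 7 members at least 1.5-fold higher, 5 overlap such a gene, and 2, Nop10 and Ebna1bp2, do not. The 15 overlapping members had a median log2 difference of 0.38 and the 30 others 0.17, with 8 and 7 members at least 25% higher. Over all genes tested, those with an opposite-strand gene had a median of 0.05, as had those without, and 12.6% and 14.8% were at least 25% higher.

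Most of these overlaps were short. Bop1 (chromosome 15, 76283426 to 76307699, minus strand) shares 43 bp with Heatr7a, which stood at 98.7% of control, and Nhp2 (chromosome 11, 51433237 to 51437216, plus strand) shares 44 bp with Rmnd5b, at 128% of control. Rrp9 (chromosome 9, 106378294 to 106387755, plus strand) shares 987 bp with Parp3, which was lower (77.5% of control). Mybbp1a shares 131 bp with Spns2 (121% of control), and Polr1e 2319 bp with Fbxo10 (109%). For these 5 the member's own percent of control was above that of its partner. They are the overlapping members at least 1.5-fold higher, so this order follows largely from how they were picked. The overlap was long for Pes1, where 79.9% of the gene span lies opposite 4930556J24Rik, which stood at 133% of control beside 132% for Pes1. Nop14 (chromosome 5, 34981181 to 35002797, minus strand) shares 1760 bp with Gm15522, at 72.2% of control beside 71.0% for Nop14. Without strand, reads of such pairs cannot be told apart, and how much they contribute was not tested.

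GC content moved with the differences of genes in general. Over 10612 genes with a transcript match, the median log2 difference ran from -0.04 in the lowest of 10 bins of GC content to 0.14 in the highest, and Spearman's rho was 0.24. Among the 45 members rho was 0.32, all from the same pair of libraries. The members' median GC content, 50.8%, was close to the 50.1% of all genes. Of the 7 members at least 1.5-fold higher, Rrp9 (59.8%), Bop1 (58.2%), Nhp2 (54.1%), Mybbp1a (53.7%) and Polr1e (50.8%) lay above that 50.1%. Nop10 (46.5%) and Ebna1bp2 (48.4%) lay below it. The 3 members in the highest GC bin had a median log2 difference of 0.91, and the 3 in the lowest bin 0.05. The correction took off the median of genes of like GC content and length and added back that of all genes, 0.05. After it the members' median log2 difference was 0.18, and Bop1 stood at 0.98, Rrp9 at 0.77, Nop10 at 0.67 and Ebna1bp2 at 0.76. Nop58, at 41.0% GC, moved from -0.45 to -0.31 and was no longer 20% lower, but with nothing added back it stood at -0.36 and was. The transcript used for Nop58 is 9507 bases long, against a median of 2804 for the members, and a shorter transcript was not tested. With nothing added back the members' median was 0.13, Bop1 stood at 0.93 and Rrp9 at 0.72.

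**Figure D4:**
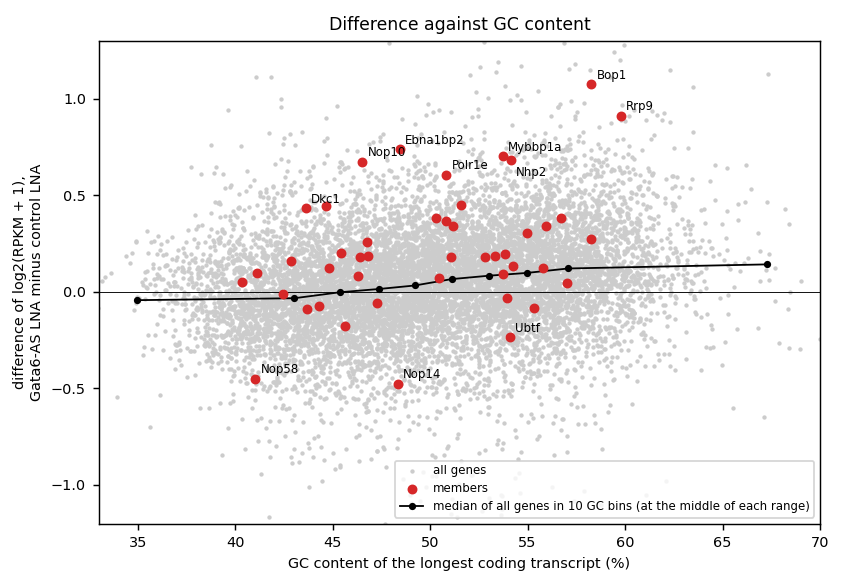
Difference of log2(RPKM + 1), Gata6-AS LNA minus control LNA (y axis), against GC content of the longest coding transcript (x axis, percent) for all genes (grey), the 45 members (red) and the median of all genes in 10 bins of GC content (black line). The line runs from -0.04 to 0.14, and Bop1, Rrp9, Ebna1bp2, Nop10, Mybbp1a, Nhp2 and Polr1e lie well above it. A few genes lie outside the plotted range.

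In the authors' deposited table of 2099 selected genes, 10 members were listed. As higher in the Gata6-AS LNA library it lists 9 members (6.24% of all genes tested were so listed), and as lower 1 (5.7%). In the authors' deposited table the log2 difference of Bop1 was 1.12 (p = 0.000791), that of Rrp9 0.97 (p = 0.00223) and that of Ebna1bp2 0.77 (p = 0.00490). For Mybbp1a the authors' deposited table gives 0.76 (p = 0.0106), for Nhp2 0.66 (p = 0.0175), for Nop10 0.65 (p = 0.0295) and for Polr1e 0.75 (p = 0.0386). Nolc1 (0.53, p = 0.0480) and Gnl3 (0.51, p = 0.0618) were the remaining higher members of the authors' deposited table, and Nop14 (-0.50, p = 0.0491) the lower one. Nop58 was not listed, although its difference was close to that of Nop14. The p-values come from 1 library per group by an unnamed test, and they rest on the same libraries as the RPKM values.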

How the data were processed

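RNA of PS10 XEN cells was sequenced in 2 libraries, 1 per group. The authors deposited RPKM values per gene with coordinates, per the file headers; the submitters' processing notes name TopHat and mm9. The counting tool, the annotation and the use of strand are not stated in what was used here. The authors deposited a second table of log2 values and p-values for genes with p up to 0.07499; its rows were joined by coordinates and strand. The measure was the difference of log2(RPKM + 1), on genes averaging 1 RPKM or more over both libraries, with a span of at least 200 bp (5 shorter features left out); for 59 symbols on several rows the row with the highest mean was used. No test was possible with 1 library per group.

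Depth was read from 829 (control) and 886 (Gata6-AS LNA) genes under 3000 bp whose RPKM times span is a whole number of steps, within 3e-07 of the value plus 0.0002 reads. At 1 RPKM, a kilobase holds 104 control reads (exact 95% Poisson interval 85.0 to 126). Values at 0 allow up to 3 reads, or 0.0290 RPKM over a kilobase in the control and 0.0244 in the other library. The least number of reads behind a gene was the smallest pair of whole numbers giving both RPKM at a length up to 30000 bp. Python 3.11.15, numpy 2.4.6, pandas 2.3.3 and scipy 1.17.1 were used, and the steps were tested on simulated data. GC content and length came from the longest coding transcript of GENCODE M21, by symbol.

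Members and lists were chosen with earlier results of these data known. Values in both libraries are given for the members with the most positive and most negative differences, those at least 25% higher or 20% lower, Pol I subunits and initiation factors; in other lists, genes past the 1.5-fold rule and the extremes are named, and further genes were named after their values were seen. Names missing from the table were matched through RefSeq synonyms (GRCm38.p6), for the other lists only. Alternatives were other pseudocounts, scalings, filters and size rules.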

Additional observations from a re-analysis of the deposited data

How the results depend on the processing

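The members' median log2 difference lay between 0.13 and 0.20 under all alternatives run, lowest with the median of all genes set to 0 or not added back after the GC and length correction, and highest with a pseudocount of 0.1 RPKM. The number above 0 was 32 to 36, except that 22 of 30 lay above 0 when members overlapping an expressed opposite-strand gene were left out. The count at least 25% higher was 12 of 45 with the median of all genes set to 0, when Polr1b, Rrp1 and Nop16 no longer passed. Of all genes, 11.0% were then as much higher and 10.9% at least 20% lower. Under the other scalings, pseudocounts and filters the count was 13 to 16, with 6.37% to 18.5% of all genes as much higher. Without the overlapping members 7 of 30 were higher (23.3%) and 1 lower (3.33%), against 14.3% and 8.08% of all genes tested. With a size rule of 1.5-fold, 7 members were higher and 0 lower, and with 2-fold 1 was higher and 0 lower. With GC content and length corrected for (an alternative added after seeing the data, like the overlap setting), 14 were higher and 1, Nop14, was lower. Of all genes tested, 13.1% were then as much higher and 7.59% as much lower. Rrp1, Nop16 and Nop58 no longer passed, and Utp20 did. Without the median of all genes added back, 11 were higher and 2, Nop14 and Nop58, lower, against 9.81% and 9.95% of all genes tested. With the summed RPKM of each library set to 1000000, 15.6% of all genes were at least 25% higher and 11.6% at least 20% lower. No member at least 25% higher or 20% lower changed sign under any scaling, pseudocount or the correction, though such members start far from 0. Of the others, 5 changed sign under the correction with nothing added back, the most under any of these settings. Polr1c, Nop56, Gar1 and Rrs1 then lay below 0 and Heatr1 above it. A replicate could not be left out, and no paired analysis was possible because each group has 1 library. The values of Rrp9 require at least 392 and 951 reads, the smallest such lower bounds among the members, which are not read counts. Variation between cultures was not measured.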
